A study of Homo sapiens with 12 samples.

Results

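The genes described here are 6 members of the DNA mismatch repair pathway, MSH3, MSH6, MLH3, PMS1, PMS2 and EXO1. They were chosen by symbol from the 62426 genes of the count table, of which 40400 had any count, and the rule itself uses no measured value. All 6 were found, and all 6 passed the filter on low counts in every fit. Their RNA was measured by polyA RNA sequencing in HCT116 and SW480, both human colon cancer cell lines. Each line was sequenced as cells labelled CD44s-OE, transfected with a plasmid for the standard isoform of the hyaluronan receptor CD44 and selected with Geneticin, as cells labelled CD44v6-OE, transfected with a plasmid for the isoform that includes variant exon v6 and selected in the same way, and as parental cells. The 2 cell lines and 3 kinds of culture give 6 groups of 2 libraries, 12 libraries in all. The deposited column names call the OE libraries pools, and nothing states that the 2 libraries of a group came from separate cultures, so the p-values measure the spread between these libraries, which may be technical. No empty-vector line is among the 12 libraries, so the effect of carrying a plasmid and passing through selection cannot be told apart from that of the isoform.

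Mismatch repair corrects base mispairs and small loops left behind by the replication fork. MutS dimers find the error, with MSH6 in the dimer that reads base mispairs and very short loops and MSH3 in the dimer that reads longer loops. MutL dimers then cut the new strand, EXO1 degrades it past the error, and the replication clamp, polymerase delta and DNA ligase I fill and seal the gap. Cells without this repair gain and lose bases in runs of 1 repeated base, a state called microsatellite instability that is known in a subset of colon cancers. HCT116 is a mismatch repair deficient line and SW480 a proficient one, which is why the members were compared between the lines before any effect of the CD44 isoforms.

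The members carry such runs themselves, and the longest run in the coding sequence of each is shown because it is the kind of sequence on which the pathway acts. The run is in capitals within up to 30 bases of its exon, 5′ to 3′ on the coding strand, read from GRCh37 with the GENCODE v44lift37 canonical transcript of each gene. The run of MLH3 lies in exon 2 of 13, that of MSH3 in exon 7 of 24, that of MSH6 in exon 5 of 10, that of PMS1 in exon 5 of 13, that of PMS2 in exon 11 of 15, and the pair in EXO1 in exons 13 and 14 of 16.
MSH3 (chr5:79970904-79970933, plus strand): atgttagggacAAAAAAAAgggcaacattt
MSH6 (chr2:48030629-48030658, plus strand): gccggaagataCCCCCCCCttcttagagct
MLH3 (chr14:75514593-75514622, minus strand): agagaaagagAAAAAAAAAgaatctagcaa
PMS1 (chr2:190682799-190682828, plus strand): tactcaactgcAAAAAAAtgtaaagatgaa
PMS2 (chr7:6027146-6027175, minus strand): gactggagaagAAAAAAAAgacgtgtccat
EXO1 (chr1:242042051-242042070, plus strand): gTTTTTTTgcagttcagatt
EXO1 (chr1:242045281-242045310, plus strand): tctcatttctcAAAAAAAgacacacctcta
The run had 9 bases in MLH3, 8 in MSH3, MSH6 and PMS2, and 7 in PMS1 and EXO1. Of 19509 coding genes, 22.8% held a run of at least 7 bases in the coding sequence, 5.78% one of at least 8 and 1.34% one of at least 9. These shares take no account of length, and a longer sequence has more places for a run. The coding sequences of the members ran from 2538 bases in EXO1 to 4359 in MLH3. The letters are those of the reference genome. Counts per gene cannot show whether a run is altered in either line, and this was not tested.

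The start regions of the members were read for a short E2F-type motif, since E2F factors are known to drive many genes of S phase, the period in which DNA is copied. The motif was written as TTTCCCGC, TTTCGCGC, TTTGCCGC or TTTGGCGC on either strand, in RefSeq windows of GRCh38.p14 from 250 bases before to 50 bases after each annotated start. It was found in 4 of the 6 members (66.7%), MSH3, MSH6, PMS2 and EXO1, against 1090 of 27305 genes with a window (3.99%). A gene counted if any of its windows matched, and the number of windows was not taken into account. MSH6 had 4 windows and 1 match, and EXO1 had 2 windows and 1 match. The 2 windows of PMS2 matched at the same site. Over all genes, 1164 of 35116 windows matched (3.31%). The matches of MSH6, PMS2 and EXO1 are shown in capitals within 30 bases, as examples of different spellings of the motif, and those of MSH3 are not shown.
MSH6 (chr2:47783137-47783166, plus strand): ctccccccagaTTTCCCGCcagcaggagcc
PMS2 (chr7:6009131-6009160, minus strand): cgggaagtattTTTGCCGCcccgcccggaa
EXO1 (chr1:241848197-241848226, plus strand): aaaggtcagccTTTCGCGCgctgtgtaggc
MLH3 and PMS1 had no match, which says only that these letters are not in their windows. A match is a string of letters and not a shown binding site.

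Total counts ran from 43102156 to 52811889 per library, with each read of a pair counted. Levels are given as CPM, counts scaled to TMM-adjusted library size, and as CPM per kilobase of exon (CPM per kb) where genes are set side by side. CD44 itself, summed over all isoforms, stood at 503 to 571 CPM in HCT116 OE libraries and 539 to 540 CPM in HCT116 parental ones, and at 134 to 205 CPM in SW480 OE libraries and 161 to 187 CPM in SW480 parental ones, and none of the 4 comparisons of OE with parental cells passed for it in edgeR (adjusted p of 0.575 to 0.959). The SD of the log2 difference between the 2 libraries of a group, over 9385 genes, was 0.42 in CD44s-OE cells of HCT116 and 0.41 in parental cells of SW480, against 0.14 to 0.30 in the other 4 groups. Of the 9 colon epithelial markers, KRT8 and KRT18 were high in all 12 libraries and CDX1 was at 0 in 7, and the 9 summed to 4738 to 7276 CPM in HCT116 and 7527 to 17624 CPM in SW480. The 5 leukocyte markers summed to 5.37 CPM at most and the 4 endothelial markers to 2.12 CPM at most. CD14 reached 4.39 CPM and VWF 2.12 CPM, while PTPRC was at 0 in 11 libraries and TEK in 9.

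The largest difference among the members was in MSH3 (ENSG00000113318, chromosome 5, 79950471 to 80172634 of hg19, plus strand), the loop-reading MutS subunit. MSH3 had 1.67 and 2.33 CPM in HCT116 CD44s-OE, 1.79 and 2.42 CPM in HCT116 CD44v6-OE and 2.67 and 2.03 CPM in HCT116 parental libraries. In SW480 it had 21.6 and 20.6 CPM in CD44s-OE, 23.0 and 20.9 in CD44v6-OE and 19.6 and 20.0 CPM in parental libraries. Every HCT116 library lay far below every SW480 library, whatever the plasmid. The HCT116 values rested on 83 to 141 counts per library, so MSH3 was detected in HCT116 at a low level and not absent.

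In the edgeR fit of all 12 libraries, MSH3 was lower in HCT116 than in SW480 in all 3 kinds of culture. The log2 difference was -3.07 in parental cells (SE 0.24, adjusted p = 1.21e-07), -3.40 in CD44s-OE cells (SE 0.24, adjusted p = 6.1e-08) and -3.38 in CD44v6-OE cells (SE 0.24, adjusted p = 6.34e-08). As a fold, the HCT116 level was 8.41 times lower in parental cells, 10.5 times lower in CD44s-OE cells and 10.4 times lower in CD44v6-OE cells. Such differences are common between these lines, and the parental one stood at the 83.3 percentile of absolute log2 differences over 19567 tested genes. By the study's own thresholds (adjusted p under 0.1 and absolute log2 fold change over 1.5), MSH3 was the 1 member of 6 called in each kind of culture, where 29.0% of tested genes were called in parental, 28.7% in CD44s-OE and 28.0% in CD44v6-OE cells.

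**Figure D1:**
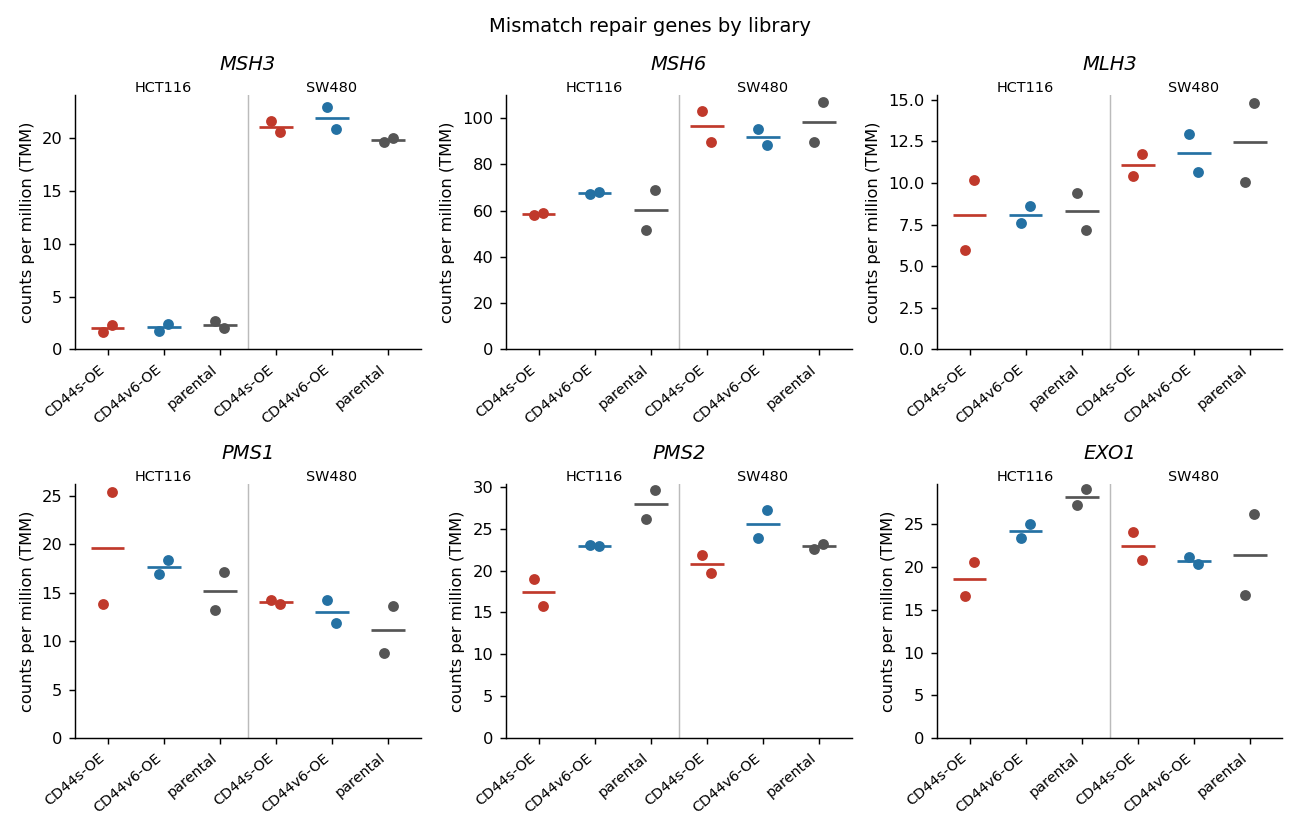
Level of each mismatch repair gene in CPM (y axis, TMM-scaled, from 0) in the 12 libraries, by cell line and group (x axis). Points are libraries and lines are group means. MSH3 lies between 1.67 and 2.67 CPM in HCT116 and between 19.6 and 23.0 CPM in SW480, while in HCT116 PMS2 and EXO1 are lowest in CD44s-OE and highest in parental libraries.

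MSH6 (ENSG00000116062, chromosome 2, 47922669 to 48037202, plus strand), the mispair-reading MutS subunit, was also lower in HCT116, by a smaller step. In HCT116 it had 58.3 and 58.8 CPM in CD44s-OE, 67.2 and 68.0 in CD44v6-OE and 51.8 and 68.9 CPM in parental libraries. In SW480 it had 103 and 89.8 CPM in CD44s-OE, 95.3 and 88.5 in CD44v6-OE and 89.9 and 107 CPM in parental libraries. All 6 HCT116 libraries were below all 6 SW480 libraries. The log2 difference between HCT116 and SW480 was -0.71 in parental cells (SE 0.16, adjusted p = 0.00184), -0.72 in CD44s-OE cells (SE 0.16, adjusted p = 0.00165) and -0.44 in CD44v6-OE cells (SE 0.16, adjusted p = 0.0295). MSH6 shares 1785 exon bases with FBXO11 on the other strand, and FBXO11 did not pass between the parental lines (log2 difference 0.22, SE 0.16, adjusted p = 0.264).

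MLH3 (ENSG00000119684, chromosome 14, 75480472 to 75518235, minus strand), a MutL subunit also used in meiosis, was per length the least abundant member after MSH3 in HCT116 and the least abundant in SW480. It had 5.98 and 10.2 CPM in CD44s-OE, 7.60 and 8.60 in CD44v6-OE and 9.40 and 7.20 CPM in parental libraries of HCT116. SW480 had 10.4 and 11.7 CPM in CD44s-OE, 12.96 and 10.6 in CD44v6-OE and 10.1 and 14.8 CPM in parental libraries. The lines overlapped only through the higher HCT116 CD44s-OE library, which lay just above the lower SW480 parental one. The parental lines differed by -0.58 on the log2 scale (SE 0.27, adjusted p = 0.0829). The call was lost without HCT116 parental replicate 2 (log2 difference -0.40, adjusted p = 0.365) and without SW480 parental replicate 2 (-0.28, adjusted p = 0.484), and CD44s-OE and CD44v6-OE cells did not pass in edgeR (adjusted p = 0.172 and 0.108). In DESeq2 MLH3 passed as lower in CD44v6-OE cells (adjusted p = 0.0843) and not in CD44s-OE cells (0.162).

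Of the 6 members, 3 (MSH3, MSH6 and MLH3) were thus lower in HCT116 among parental cells, where 31.7% of all tested genes were lower, and 2 (MSH3 and MSH6) in CD44s-OE and in CD44v6-OE cells, where 30.6% and 30.7% were. The remaining members did not pass between the parental lines. The log2 difference was 0.43 for PMS1 (SE 0.28, adjusted p = 0.200), 0.28 for PMS2 (SE 0.16, adjusted p = 0.159) and 0.39 for EXO1 (SE 0.20, adjusted p = 0.120). Without SW480 parental replicate 2, PMS1 (0.79, adjusted p = 0.0477) and EXO1 (0.75, adjusted p = 0.0097) passed with higher levels in HCT116.

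**Figure D2:**
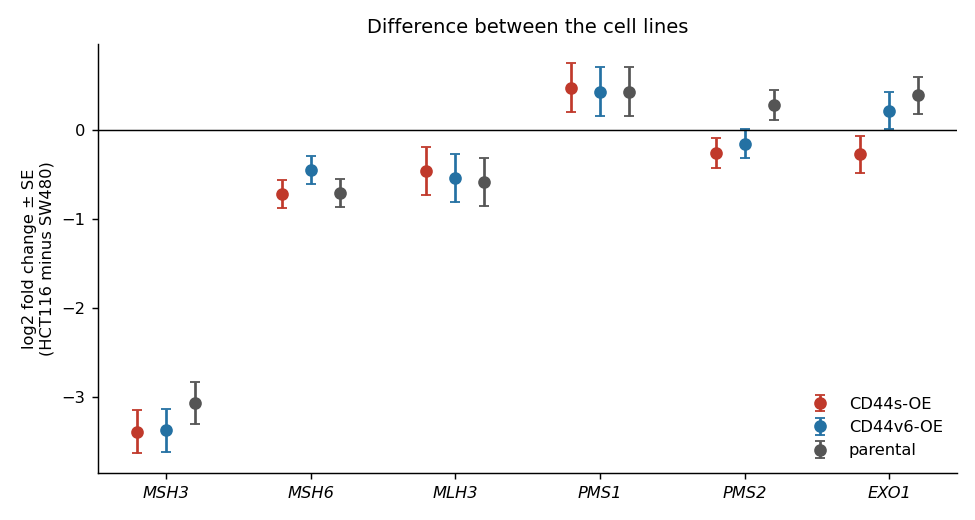
Log2 fold change of each member between the lines (HCT116 minus SW480, y axis) in CD44s-OE, CD44v6-OE and parental cells, from the edgeR fit of all 12 libraries. Points are estimates and bars are ± 1 SE. MSH3 lies at -3.40, -3.38 and -3.07 and the other members lie between -0.72 and 0.48.

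Set per length of exon, the members took a different order in the lines. The length is that of all annotated exons of a gene, 10955 bases for MSH6 and 4137 for EXO1, whichever transcripts the cells make. The order of genes rests on these lengths. In CPM, with no length, MSH6 was above EXO1 in HCT116 parental cells (60.3 against 28.1). In HCT116 parental cells EXO1, the exonuclease, was highest at 6.80 ± 0.31 CPM per kb (SD, n = 2 for these values), then MSH6 at 5.51 ± 1.10, PMS2 at 4.48 ± 0.39, PMS1 at 2.78 ± 0.51, MLH3 at 0.993 ± 0.186 and MSH3 at 0.441 ± 0.085 CPM per kb. MSH6 and PMS2 overlapped between libraries, and the other neighbours did not. In SW480 parental cells MSH6 was highest at 8.99 ± 1.11, then EXO1 at 5.18 ± 1.62, MSH3 at 3.72 ± 0.05, PMS2 at 3.67 ± 0.07, PMS1 at 2.06 ± 0.64 and MLH3 at 1.49 ± 0.40 CPM per kb, and the libraries of MSH3 and PMS2, and of PMS1 and MLH3, overlapped. EXO1 lay within 1 SD of MSH3. MSH3 thus stood last in HCT116 and level with PMS2 in SW480.

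Ratios within a library, which no library scaling can move, showed the same step. Their size depends on the exon lengths, which are fixed per gene and the same for both lines. Per length, MSH3 was 5.46% to 10.6% of MSH6 in the 6 HCT116 libraries and 38.4% to 49.5% in the 6 SW480 libraries. Of the summed CPM per kb of all 6 members, MSH3 made up 1.69% to 2.56% in HCT116 and 13.5% to 16.5% in SW480. EXO1 was 75.5% to 139% of MSH6 per length in HCT116 and 49.2% to 64.7% in SW480.

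**Figure D3:**
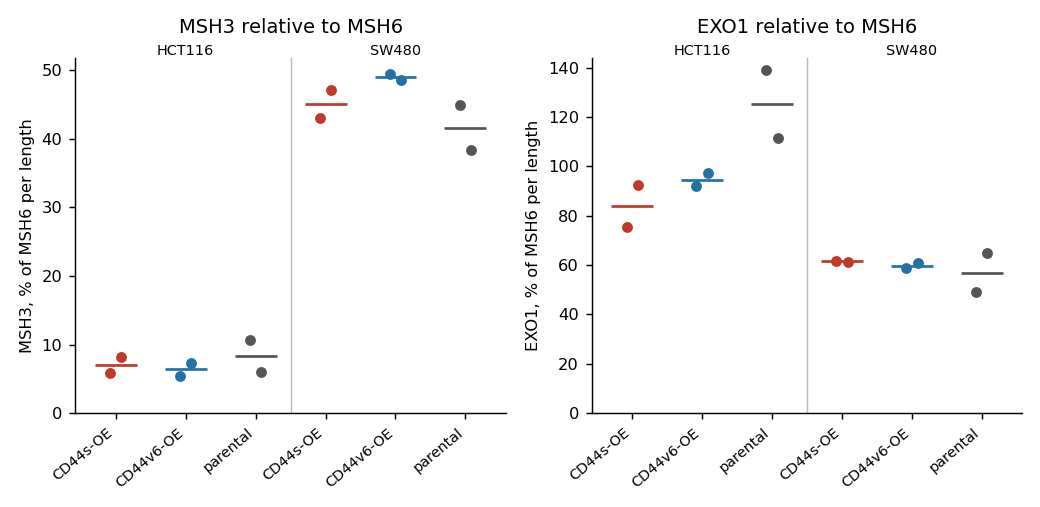
MSH3 (left) and EXO1 (right) as a percentage of MSH6, each per length of exon, within each library (y axis, from 0), by cell line and group. Points are libraries and lines are group means. MSH3 runs from 5.46% to 10.6% in HCT116 and from 38.4% to 49.5% in SW480, and EXO1 from 75.5% to 139% in HCT116 and from 49.2% to 64.7% in SW480.

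The next comparison asked whether these genes differed between transfected and parental cells of a line. PMS2 and EXO1 were lower in HCT116 cells labelled CD44s-OE than in the parental line, and no member passed as higher. That is 2 of 6 members passing, both lower, where 14.2% of 17335 tested genes passed in either direction, 8.45% higher and 5.71% lower. CD44 RNA, summed over isoforms, was not separated in that comparison (edgeR log2 fold change 0.01, SE 0.12, adjusted p = 0.959). It stood at 571 and 516 CPM in the libraries labelled CD44s-OE and 539 and 540.1 CPM in parental libraries. The direction is thus that of the label and not of a rise in summed CD44 RNA in these libraries. The study assessed the CD44s and CD44v6 isoforms in its OE cells by RT-qPCR and western blot, which gene totals cannot show.

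PMS2 (ENSG00000122512, chromosome 7, 6010556 to 6048737, minus strand) is the MutL subunit with the endonuclease site. It had 19.0 and 15.8 CPM in CD44s-OE, 23.1 and 22.9 in CD44v6-OE and 26.2 and 29.6 CPM in parental libraries of HCT116, and no library of 1 group overlapped another group. The log2 fold change was -0.68 in CD44s-OE against parental cells (SE 0.16, adjusted p = 0.0386), a level 1.60 times lower. In CD44v6-OE against the same parental libraries it was -0.28 (SE 0.16, adjusted p = 0.585), and in CD44s-OE against CD44v6-OE it was -0.40 (SE 0.16, adjusted p = 0.426). In SW480, PMS2 had 21.9 and 19.7 CPM in CD44s-OE, 23.9 and 27.2 in CD44v6-OE and 22.6 and 23.2 CPM in parental libraries, and CD44s-OE against parental gave -0.16, CD44v6-OE against parental 0.13 and CD44s-OE against CD44v6-OE -0.29 on the log2 scale (SE 0.18 each, adjusted p = 0.737, 0.910 and 0.614).

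EXO1 (ENSG00000174371, chromosome 1, 242011269 to 242058450, plus strand) had the same order in HCT116. It had 16.6 and 20.5 CPM in CD44s-OE, 23.3 and 25.0 in CD44v6-OE and 27.2 and 29.0 CPM in parental libraries, again with no overlap. The log2 fold change was -0.60 in CD44s-OE against parental cells (SE 0.17, adjusted p = 0.0578), a level 1.51 times lower. In CD44v6-OE against parental cells it was -0.22 (SE 0.16, adjusted p = 0.674), and in CD44s-OE against CD44v6-OE -0.38 (SE 0.16, adjusted p = 0.459). In SW480, EXO1 had 24.0 and 20.8 CPM in CD44s-OE, 21.1 and 20.3 in CD44v6-OE and 16.7 and 26.2 CPM in parental libraries. The SW480 parental pair was the widest and spanned both OE groups, and CD44s-OE against parental cells gave 0.04 (SE 0.22, adjusted p = 0.957).

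Both HCT116 calls rested on few libraries. PMS2 had an adjusted p of 0.105 without parental replicate 1, 0.265 without parental replicate 2, and 0.113 without CD44v6-OE replicate 1 or 2. EXO1 had 0.156, 0.297 and, without CD44v6-OE replicate 1 or 2, 0.155 or 0.154. With only the 4 libraries compared, PMS2 had 0.115 and EXO1 0.153, while DESeq2 gave 0.00315 and 0.0112. In RNA of whole cultures, fewer cells of a type and less RNA per cell cannot be told apart. The 6 fibroblast markers summed to 33.2 and 56.4 CPM in HCT116 CD44s-OE and 34.97 and 31.7 CPM in HCT116 CD44v6-OE libraries. In HCT116 parental libraries they summed to 19.2 and 13.7 CPM. Over the 12 libraries COL1A1 ran from 1.31 to 36.3 CPM and COL3A1 from 0 to 20.0 CPM, while DCN was at 0 in 10 and LUM in 6. The part of these markers in the result was not tested.

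Reads of PMS2 can be shared with its copies, of which the count table holds 12 by symbol, so its counts are uncertain. PMS2CL had a log2 fold change of -0.26 in HCT116 CD44s-OE against parental cells (SE 0.18, adjusted p = 0.420) and 0.00 between the parental lines. PMS2P1 had -0.43 (SE 0.16, adjusted p = 0.128), and between the parental lines it was lower in HCT116 (-0.69, SE 0.15, adjusted p = 0.00118), where PMS2 was not. PMS2P4 was lower in HCT116 CD44s-OE (-1.60, SE 0.53, adjusted p = 0.0961), on 10 and 38 counts against 75 and 72 in parental libraries. AIMP2, a scaffold of the aminoacyl-tRNA synthetase complex whose start lies 149 bases from that of PMS2 on the other strand, was also lower in HCT116 CD44s-OE (-0.41, SE 0.13, adjusted p = 0.0853).

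PMS1 (ENSG00000064933, chromosome 2, 190648811 to 190742355, plus strand), a MutL subunit with no established part in human mismatch correction, was the member whose HCT116 CD44s-OE libraries stood furthest apart. It had 13.8 and 25.4 CPM in CD44s-OE, 16.99 and 18.3 in CD44v6-OE and 13.2 and 17.1 CPM in parental libraries of HCT116. The CD44s-OE pair enclosed both CD44v6-OE libraries and one parental library, and the log2 fold change against parental cells was 0.37 (SE 0.27, adjusted p = 0.421). Without CD44s-OE replicate 1 it was 0.74 (adjusted p = 0.00625), and without CD44s-OE replicate 2 it was -0.15 (adjusted p = 0.638). ORMDL1, a regulator of sphingolipid synthesis that starts 279 bases away on the other strand, had 15.6 and 25.2 CPM in CD44s-OE and 14.3 and 14.1 CPM in parental libraries of HCT116, so the same library was the high one (log2 fold change 0.52, SE 0.23, adjusted p = 0.197). In SW480, PMS1 had 14.3 and 13.9 CPM in CD44s-OE, 14.3 and 11.8 in CD44v6-OE and 8.74 and 13.7 CPM in parental libraries, and CD44s-OE against parental cells gave 0.31 (SE 0.24, adjusted p = 0.606), or 0.67 (adjusted p = 0.0819) without SW480 parental replicate 2.

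The MutS members and MLH3 were not separated between CD44s-OE and parental HCT116 cells, with log2 fold changes of -0.23 for MSH3 (SE 0.32, adjusted p = 0.704), -0.04 for MSH6 (SE 0.15, adjusted p = 0.897) and -0.04 for MLH3 (SE 0.27, adjusted p = 0.949). MSH3, with the fewest counts, had the largest SE of the 6 members in this comparison.

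Outside HCT116 CD44s-OE against parental cells, edgeR passed 0 of 6 members in each comparison within a line. HCT116 CD44v6-OE against parental cells had 0 members at an unadjusted p under 0.05 and 0 by DESeq2, where 1.53% of tested genes passed. HCT116 CD44s-OE against CD44v6-OE had 2 members at an unadjusted p under 0.05, PMS2 and EXO1, and 0 by DESeq2, where 0.813% passed. Without HCT116 CD44s-OE replicate 1, PMS2 (-0.54, adjusted p = 0.0375) and PMS1 (0.52, adjusted p = 0.072) passed in that comparison, and without replicate 2 EXO1 did (-0.55, adjusted p = 0.0451). In SW480, CD44s-OE against parental, CD44v6-OE against parental and CD44s-OE against CD44v6-OE each had 0 members at an unadjusted p under 0.05 and 0 by DESeq2, where 4.72%, 0.570% and 2.12% of 17539 tested genes passed in edgeR. MSH3 in SW480, where it had 777 to 1053 counts per library, gave 0.07 (SE 0.17) in CD44s-OE and 0.12 (SE 0.17) in CD44v6-OE against the same parental libraries.

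**Figure D4:**
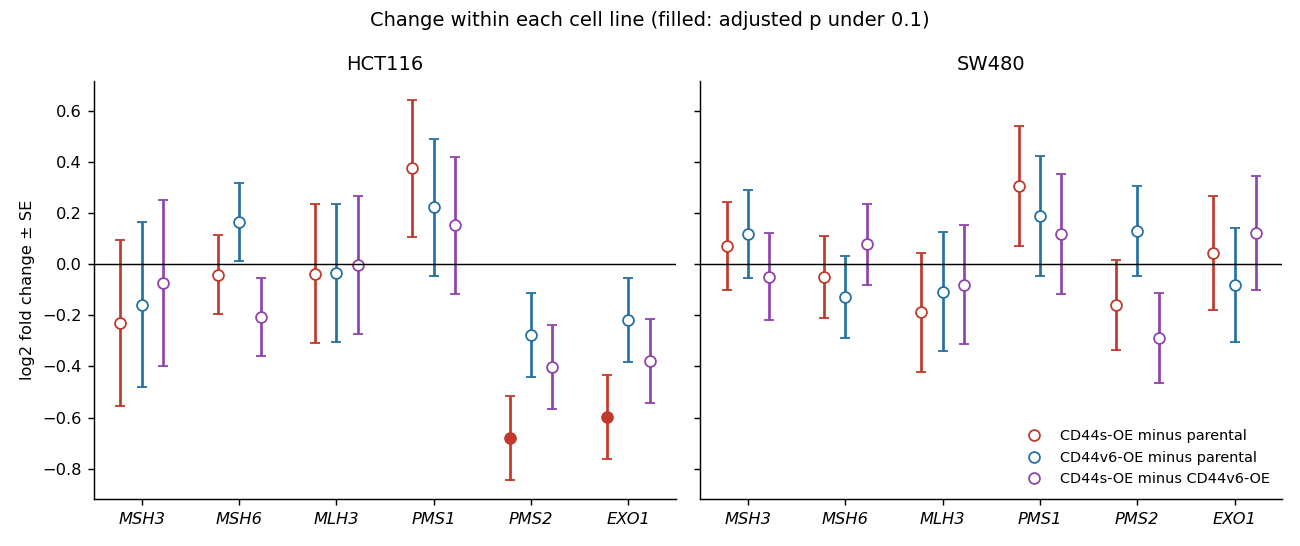
Log2 fold change of each member (y axis) in HCT116 (left) and SW480 (right) for CD44s-OE minus parental, CD44v6-OE minus parental and CD44s-OE minus CD44v6-OE. Points are edgeR estimates, bars are ± 1 SE, and filled points have an adjusted p under 0.1. Only PMS2 (-0.68) and EXO1 (-0.60) in HCT116 CD44s-OE minus parental are filled.

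A test of the difference between the lines in the CD44s-OE effect (HCT116 minus SW480) did not pass for any member. EXO1 had -0.66 (SE 0.29, adjusted p = 0.272) and PMS2 -0.54 (SE 0.23, adjusted p = 0.265) in edgeR. These were the 2 members at an unadjusted p under 0.05, DESeq2 passed 0, and 3.92% of 19567 tested genes passed. Without SW480 parental replicate 2, EXO1 passed (-1.03, adjusted p = 0.0466). For the CD44v6-OE effect 0 members passed in edgeR, 0 had an unadjusted p under 0.05 and 0 passed in DESeq2, where 0.409% of genes passed, and PMS2 had -0.44 (SE 0.23, adjusted p = 0.642). The calls in HCT116 are therefore not shown to be particular to that line.

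Over the 6 groups, the order of the mean levels differed by member. MSH3, MSH6 and MLH3 had the 3 SW480 groups above the 3 HCT116 groups, and within a line their neighbours did not pass against each other. PMS1 ran the other way, from 19.6 ± 8.2 CPM in HCT116 CD44s-OE through 17.7 ± 0.9 in HCT116 CD44v6-OE and 15.2 ± 2.8 in HCT116 parental to 14.1 ± 0.3 in SW480 CD44s-OE, 13.1 ± 1.7 in SW480 CD44v6-OE and 11.2 ± 3.5 CPM in SW480 parental cells (SD over the libraries of a group), with neighbours within each other's spread. PMS2 and EXO1 had HCT116 CD44s-OE cells lowest (17.4 ± 2.3 and 18.6 ± 2.8 CPM) and HCT116 parental cells highest (27.9 ± 2.4 and 28.1 ± 1.3 CPM), with all SW480 groups in between.

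The steps that follow mismatch excision share factors with replication, and 14 of these were followed as a list: the clamp PCNA, the clamp loader RFC, the single-strand binding protein RPA, polymerase delta and DNA ligase I. In HCT116 CD44s-OE against parental cells, 7 of 14 were lower and 0 higher, where 5.71% of all tested genes were lower. The median log2 fold change was -0.44 against 0.04 over all tested genes. The 14 genes were chosen with earlier results of these data known, so their count is not independent of the data. RFC5, a clamp loader subunit, had 74.2 and 62.4 CPM in CD44s-OE and 110 and 117 CPM in parental libraries (log2 fold change -0.73, SE 0.13, adjusted p = 0.0153). LIG1, DNA ligase I, had -0.49 (SE 0.12, adjusted p = 0.0409), RFC2 -0.48 (SE 0.12, adjusted p = 0.0416) and RPA1 -0.46 (SE 0.12, adjusted p = 0.0451). The count was 0 without parental replicate 2, 1 without parental replicate 1 or either CD44v6-OE library, and 11 without CD44s-OE replicate 2.

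The S phase list moved in the same direction as PMS2 and EXO1 in that comparison. Its 23 genes are of replication origins, nucleotide supply, chromatin assembly and the cell cycle. Those of the cell cycle, CCNE1, CCNE2, E2F1 and MKI67, did not pass. Of the 23, 15 were lower and 0 higher, where 5.71% of all tested genes were lower, with a median log2 fold change of -0.56. The list was chosen with earlier results of these data known, so this count is not independent of the data. MCM4 and MCM2, subunits of the replicative helicase, had -0.91 (SE 0.14, adjusted p = 0.00734) and -0.84 (SE 0.13, adjusted p = 0.00734), GINS4, which binds that helicase, -0.79 (SE 0.15, adjusted p = 0.0183), and CHAF1B, of the chromatin assembly factor, -0.72 (SE 0.13, adjusted p = 0.014). The list summed to 3347 and 3789 CPM in HCT116 CD44s-OE, 4299 and 4138 CPM in HCT116 CD44v6-OE and 5090 and 5239 CPM in HCT116 parental libraries, and its 3 groups kept the order that PMS2 and EXO1 had. In SW480 it summed to 4376 to 4908 CPM over all 6 libraries. The count of 15 fell to 9 without HCT116 parental replicate 1 and to 1 without HCT116 parental replicate 2. The E2F-type motif was in the windows of 11 of 19 S phase genes (57.9%) and 3 of 11 clamp and resynthesis genes (27.3%). The S phase list was picked as genes under E2F, so a high share in it follows from that choice. Among the members, MSH3 and MSH6 also held the motif and did not pass in this comparison. Whether the motif has a part in these changes was not tested.

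**Figure D5:**
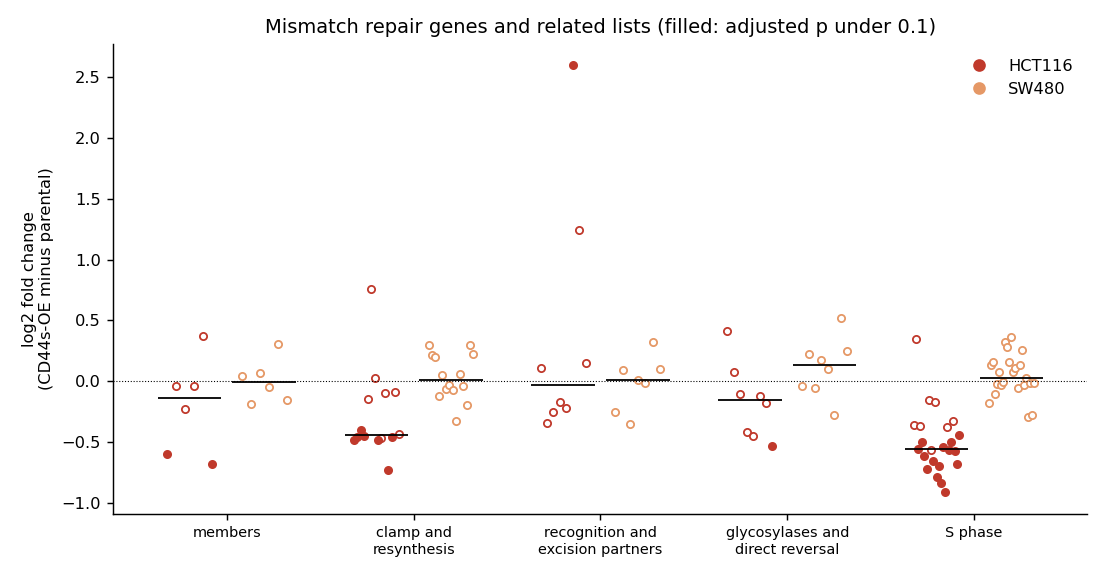
Log2 fold change in CD44s-OE minus parental cells (y axis) of the 6 mismatch repair genes and of 4 related lists (x axis), HCT116 left and SW480 right within each list. Points are genes, filled where the adjusted p is under 0.1, and bars are medians. In HCT116 the medians of the clamp and S phase lists are -0.44 and -0.56, and in SW480 no gene of these lists is filled.

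In the other repair lists 1 gene of 8 passed in each, near the 14.2% of all tested genes that did. Of 8 partners of mismatch recognition or excision, 1 was higher in HCT116 CD44s-OE, MSH4, a meiotic MutS homolog with 22 and 82 counts in CD44s-OE and 7 and 10 counts in parental libraries (log2 fold change 2.60, SE 0.67, adjusted p = 0.047). Of 8 glycosylases and direct reversal genes, 1 was lower, UNG, which removes uracil from DNA (-0.54, SE 0.14, adjusted p = 0.050). In SW480 CD44s-OE against parental cells edgeR and DESeq2 passed 0 genes of each of the 4 lists, with an unadjusted p under 0.05 for 0 clamp and resynthesis genes, 0 partners, 1 glycosylase or reversal gene and 0 S phase genes. HCT116 CD44v6-OE against parental cells also passed 0 in edgeR, with an unadjusted p under 0.05 for 14 of 23 S phase genes and 2 of 14 clamp and resynthesis genes, and 1 S phase gene passing in DESeq2. The S phase median there was -0.31.

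Between the parental lines, where 29.2% of all tested genes were higher and 31.7% lower in HCT116, each related list had genes that passed in both directions. Of the 14 clamp and resynthesis genes, 5 were higher in HCT116, led by RFC5 (log2 difference 0.91) and LIG1 (0.67), and 7 lower, led by POLD4 (-1.01) and RPA3 (-0.94). Of the 8 partners, 2 were higher, MSH5 (1.54) and MCM9 (0.67), and 3 lower, MCM8 (-0.79), HMGB1 (-0.55) and SETD2 (-0.51). Of the 8 glycosylases and reversal genes, 4 were higher, led by MGMT (1.25), which removes alkyl groups from guanine, and 3 lower, led by MBD4 (-1.19). Of the 23 S phase genes, 12 were higher and 2 lower.

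The genes whose 6 group means were most like those of a member were found by the root mean square difference of centred log2 CPM over the 6 groups, among 11789 genes. For MSH3 these were PDGFA (0.11), SLC48A1 (0.12) and HOXC10 (0.14), against a spread of MSH3 itself of 1.64 around its mean. The closest gene was EIF5 for MSH6 (0.040), CORO1C for MLH3 (0.032), TBK1 for PMS1 (0.051), RPS6KA1 for PMS2 (0.027) and AHSA1 for EXO1 (0.035). The 5 members other than MSH3 varied by 0.19 to 0.32 around their means.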

How the data were processed

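PolyA RNA of the 12 libraries was sequenced as paired reads. By the submitters' processing notes and the study's methods, the authors filtered reads with SOAPnuke, aligned them to hg19 with STAR 2.7.9a and assigned them, by strand, to GENCODE genes with featureCounts (Subread 2.0.3). Raw counts per gene were deposited by the authors. Counts of 4 outnumber counts of 3 in all 12 libraries, which fits both reads of a pair having been counted. The deposited variance-stabilized table holds log2-like values that the authors made with DESeq2 1.30.1. Its symbols chose the members. The number of per-sample columns left unmapped was 0.

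The count data were tested with edgeR 4.0.16 (R 4.3.3): TMM, filterByExpr, glmQLFit with robust=TRUE, glmQLFTest, with p-values adjusted over every gene tested (Benjamini-Hochberg). Each line was fitted on its 6 libraries, and differences between lines on all 12. Comparisons of CD44s-OE and CD44v6-OE with parental cells share the parental libraries. A gene passed at an adjusted p under 0.1 and was called when its absolute log2 fold change was also over 1.5. The fit of CD44s-OE against parental cells in each line was also run on counts simulated with spreads taken from these data. The fits of all 12 libraries were not run on simulated counts. No intervals for single libraries are given, and the standard errors carry the depth.

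The rule for the members reads symbols only, but the members and all lists were chosen with earlier results of these data known. All members are reported, with up to 4 passing genes per list and direction by absolute log2 fold change, genes that start within 1 kb of a member on the other strand or overlap it, PMS2 copies by symbol, and the 3 most alike genes per member (average log2 CPM of at least 1, prior count 2). An item that this rule would name is not reported here. Cell type markers were 9 of colon epithelium, 6 of fibroblasts, 5 of leukocytes and 4 of endothelium. Alternatives were DESeq2 1.42.0, RLE size factors, halved counts, robust=FALSE, no filter or one on a mean count under 50, limma 3.58.1 on the variance-stabilized values, an adjusted p under 0.05, replicate number as a block, each library left out, a fit of the compared groups alone, TPM, and no TMM.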

Additional observations from a re-analysis of the deposited data

Results flagged for a closer look

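Of the related genes, 2 of 14 clamp and resynthesis genes, 1 of 8 partners, 1 of 8 glycosylases and reversal genes and 6 of 23 S phase genes had a CD44s-OE effect that differed between the lines by the edgeR interaction test (HCT116 minus SW480, log2 scale), which 3.92% of all tested genes passed. All were negative except the partner. The lists were chosen with earlier results of these data known, so these counts are not independent of the data. Of the repair lists, LIG1 had -0.81 (SE 0.18, adjusted p = 0.0361), RFC5 -0.71 (SE 0.19, adjusted p = 0.0748) and UNG -0.81 (SE 0.20, adjusted p = 0.0553). Of the S phase list, GINS4 had -1.17 (SE 0.21, adjusted p = 0.0127), MCM4 -1.07 (SE 0.20, adjusted p = 0.0146), MCM2 -0.97 (SE 0.19, adjusted p = 0.02) and GINS2 -0.96 (SE 0.21, adjusted p = 0.0323). The partner, MSH4, differed the other way (adjusted p = 0.0517), with 22 and 82 counts in CD44s-OE and 7 and 10 counts in parental libraries of HCT116, against 0 and 0 counts in CD44s-OE and 2 and 7 counts in parental libraries of SW480. No fold is given for MSH4, since it was under the count filter in SW480. DESeq2 passed 5 clamp and resynthesis genes, 0 partners, 1 glycosylase or reversal gene and 12 S phase genes. How these list counts depend on single libraries was not tested. None of the 6 mismatch repair members passed this test.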

How the results depend on the processing

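Of 54 member results over the 9 comparisons, the 5 that passed kept their sign under every alternative, and 26 of the 49 that did not pass changed sign under at least one. In HCT116 CD44s-OE against parental cells, the 2 members that passed became 1 at an adjusted p under 0.05 and 0 with only the groups compared, and 0 to 3 with each library left out, the third being PMS1, which passed as higher. Leaving out each library gave 0 to 2 in HCT116 CD44s-OE against CD44v6-OE, 0 to 1 in SW480 CD44s-OE against parental, 0 to 1 for the line difference in the CD44s-OE effect and 2 to 4 between the parental lines. The log2 fold change ran over the left-out libraries from -0.24 to 0.17 for MSH6, -0.49 to 0.29 for MLH3 and -0.15 to 0.74 for PMS1 in HCT116 CD44s-OE against parental, from -0.36 to 0.52 for PMS1 in HCT116 CD44s-OE against CD44v6-OE, from -0.44 to 0.12 for MLH3 and -0.24 to 0.41 for EXO1 in SW480 CD44s-OE against parental, and from -0.246 to 0.0073 for MSH6 and -0.093 to 0.554 for PMS1 in SW480 CD44v6-OE against parental. As fewer samples enter each of these fits, a lost call alone does not show a smaller effect. The estimates moved as well. In HCT116 CD44s-OE against parental cells, the PMS2 log2 fold change of -0.68 ran from -0.82 to -0.57 over all alternatives. That of EXO1, -0.60, ran from -0.77 to -0.46. For MLH3 between the parental lines, the log2 difference of -0.58 ran from -0.83 to -0.28 over all alternatives.

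Replicate numbers did not pair the samples (correlations of deviations 0.15, 0.06 and 0.25 in HCT116 and -0.25, 0.11 and -0.15 in SW480). With replicate number as a block, PMS2 had an adjusted p of 0.0289 and EXO1 of 0.0364 in HCT116 CD44s-OE against parental, and MLH3 lost its call between the parental lines (adjusted p = 0.165). The counts of S phase and clamp genes lower in HCT116 CD44s-OE, an alternative chosen after seeing the data, ran from 1 to 19 and from 0 to 11. With TPM in place of CPM per kb, a change of unit, HCT116 parental cells had 1.31 for MSH3, 16.4 for MSH6, 2.95 for MLH3, 8.29 for PMS1, 13.3 for PMS2 and 20.3 for EXO1, and SW480 parental cells had 11.0, 26.8, 4.45, 6.16, 10.9 and 15.5. With no TMM, MSH3 in SW480 parental cells was 3.60 and PMS2 3.56 CPM per kb. Depth limited MSH3 in HCT116, with 83 to 141 counts a library.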
